A study of Mus musculus with 6 samples.

Results

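The genes that encode the proteins of the cytoplasmic ribosome were measured in sorted mouse lung group 2 innate lymphoid cells (ILC2s) with and without Piezo1. They were chosen by symbol alone, as Rpl or Rps followed by a number and an allowed suffix, plus Rplp0, Rplp1, Rplp2 and Rpsa, leaving out pseudogenes whose symbols carry -ps and the Rps6k kinases. The rule found 85 of the 18057 genes in the deposited table, 52 of the large subunit and 33 of the small subunit. No expression value entered the rule.

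The Piezo1_KO group carried the genotype Il7rcre Piezo1flx, in which the Il7r-driven Cre recombinase acts on a floxed Piezo1 allele in lymphoid cells, and the WT group carried Il7rcre alone, per the genotype labels, although its titles read WT. Piezo1 encodes a mechanically gated cation channel. All mice had received IL-33 intranasally, 3 injections of 1 µg, and all ILC2s were then kept for 24 h in IL-2 and IL-7, 10 ng/mL each, before 10 ng of RNA went into each library. Each group had 3 libraries. The sources used here give no age for the mice. Nothing in the labels ties replicates to separate animals, and every p-value below is set against the spread of the libraries alone, part of which may be technical. In bulk RNA, fewer cells of a type and less RNA per cell cannot be told apart.

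Ribosomal protein genes are housekeeping genes that a dividing or secreting lymphocyte expresses strongly, and their products are needed in matching amounts to assemble the small subunit, which decodes mRNA, and the large subunit, which joins amino acids. Their mRNAs begin with a pyrimidine tract, the terminal oligopyrimidine (TOP) motif, through which mTORC1 and LARP1 control their translation rather than their transcription. Mammalian genomes also hold many processed pseudogenes of these short mRNAs, so reads of a gene and its copies can be hard to assign.

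The libraries held between 13059046 (WT replicate 3) and 33459904 (WT replicate 2) estimated counts. The part of depth in the values below was not tested. Piezo1 was at 150, 109 and 122 CPM in Piezo1_KO replicates 1, 2 and 3, against 247, 278 and 160 CPM in WT replicates 1, 2 and 3, with no overlap between the groups (log2 fold change −0.85 ± 0.21 SE, adjusted p = 0.112, edgeR's quasi-likelihood test, adjusted by the Benjamini-Hochberg method). CPM is the depth-normalised count after TMM scaling between libraries. Since exons outside the floxed part are counted too, the value left in Piezo1_KO is not a measure of intact transcript. All 10 ILC2 markers were present, summing to 8376 to 9539 CPM in Piezo1_KO and 8103 to 8168 CPM in WT, and 2 of them (Icos and Il7r, the locus of the Cre driver) fell in Piezo1_KO while 0 rose (edgeR). Of 4 NK cell and 3 endothelial markers 0 were matched to the table, and T cell markers (3 of 6 matched) summed to 19.1 to 25.6 CPM in Piezo1_KO and 26.8 to 34.9 CPM in WT. B cell markers (3 of 5 matched) summed to 80.2 to 103.7 CPM in Piezo1_KO and 34.4 to 40.3 CPM in WT, and their part in the values below was not tested. Granulocyte and mast cell markers (3 of 5 matched) summed to 3.93 to 5.15 CPM in Piezo1_KO and 8.12 to 12.1 CPM in WT, and the 1 matched erythroid marker was at 23.6 to 28.2 CPM in Piezo1_KO and 3.52 to 4.87 CPM in WT.

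WT replicate 2 stood apart in these genes before any comparison of the groups. It had the lowest level of the 6 libraries for 81 of the 85 genes, the exceptions being Rpl39l, Rpl7l1, Rps2 and Rpsa. The median deviation from a gene's mean over the 6 libraries, in log2(CPM + 0.5), was −0.10, 0.38 and 0.27 in Piezo1_KO replicates 1, 2 and 3, against −0.14, −0.69 and 0.25 in WT replicates 1, 2 and 3. Piezo1_KO replicate 2 was highest for 68 genes, WT replicate 3 for 12, Piezo1_KO replicate 3 for 4 and WT replicate 2 for 1 (Rpsa). Results on the family and its main members are therefore given with and without WT replicate 2.

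**Figure D1:**
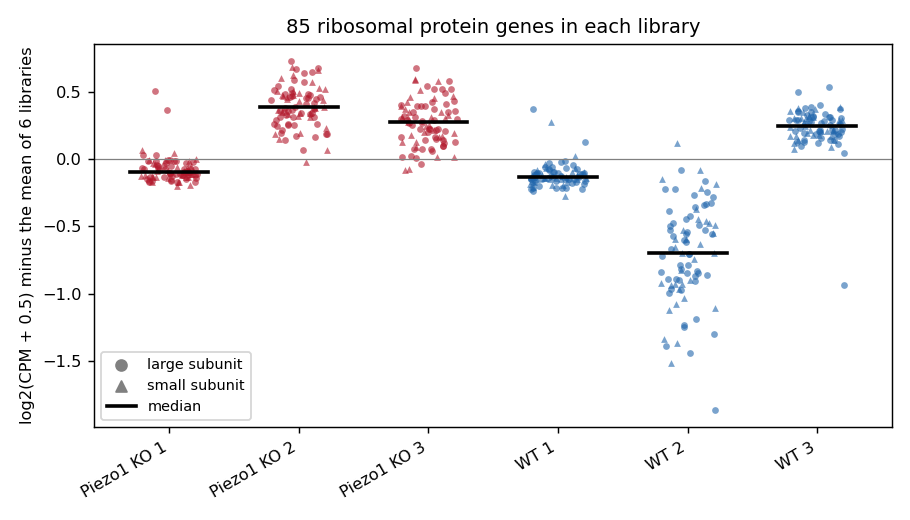
Each point is 1 of the 85 ribosomal protein genes in 1 library (circles large subunit, triangles small subunit), on the y axis as log2(CPM + 0.5) minus the mean of the 6 libraries, with the median as a black bar. The genes of a library lie together, and those of WT replicate 2 lie lowest and spread most (median −0.69).

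The coding sequences of 2 short members are shown, chosen after the values were seen. Their levels in WT replicate 2 were among the lowest, at 39.5% (Rpl39) and 38.7% (Rps28) of the mean of WT replicates 1 and 3. Rps29 was lower (32.5%), and Rpl41, the shortest member, was at 54.5%. The sequences come from GENCODE release M21 on GRCm38. They are read from the start codon, which is in capitals, to the stop codon. The lengths are 156 bases for Rpl39 and 210 for Rps28.
Rpl39 (gene chrX:37082520-37085402, minus strand): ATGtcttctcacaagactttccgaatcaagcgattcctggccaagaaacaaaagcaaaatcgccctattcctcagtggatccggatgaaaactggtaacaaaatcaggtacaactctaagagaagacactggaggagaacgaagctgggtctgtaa
Rps28 (gene chr17:33819027-33824562, minus strand): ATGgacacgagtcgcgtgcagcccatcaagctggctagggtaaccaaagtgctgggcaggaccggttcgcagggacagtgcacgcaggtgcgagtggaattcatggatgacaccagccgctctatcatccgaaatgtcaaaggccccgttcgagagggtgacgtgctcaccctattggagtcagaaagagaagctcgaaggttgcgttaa

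The members as a whole took 2.52%, 3.32% and 3.08% of the estimated counts in Piezo1_KO replicates 1, 2 and 3, against 2.47%, 1.86% and 3.19% in WT replicates 1, 2 and 3. The share averaged 2.97 ± 0.41% in Piezo1_KO and 2.51 ± 0.67% in WT (SD, n = 3 each), and the groups overlapped, with WT replicate 3 above Piezo1_KO replicates 1 and 3. Without WT replicate 2 the WT mean was 2.83%. Large-subunit genes took 1.78 ± 0.23% in Piezo1_KO and 1.51 ± 0.40% in WT, and small-subunit genes 1.20 ± 0.18% in Piezo1_KO and 0.9995 ± 0.262% in WT (SD, n = 3 each). The groups differed by less than 1 SD of WT in all 3 shares. The 13 mitochondrially encoded protein genes, whose share depends on the RNA's composition and quality, took 0.511%, 0.542% and 0.622% of the counts in Piezo1_KO replicates 1, 2 and 3, against 0.50005%, 0.489% and 0.419% in WT replicates 1, 2 and 3. These groups did not overlap, and the part of this shift in the ribosomal protein values was not tested.

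**Figure D2:**
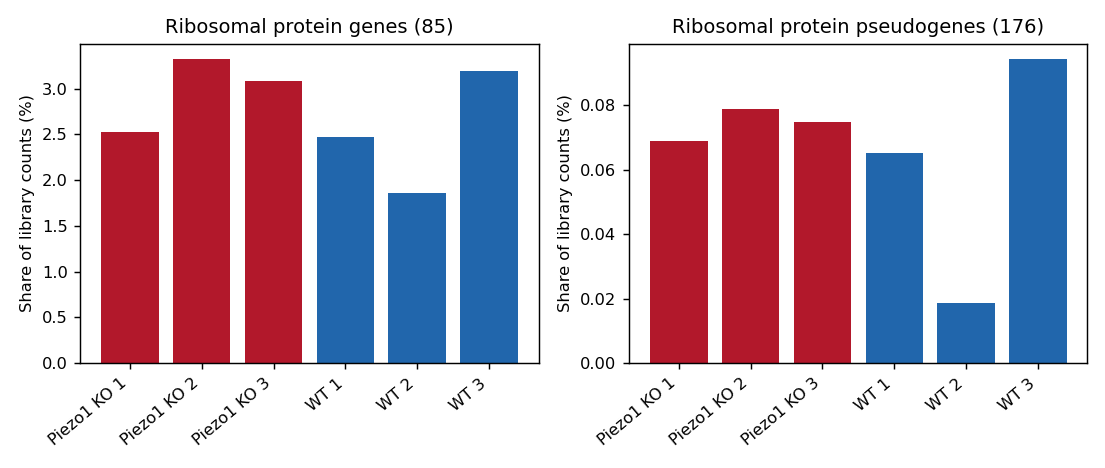
Bars give the percent of a library’s estimated counts taken by the 85 ribosomal protein genes (left) and by 176 ribosomal protein pseudogenes with -ps symbols (right) in each library. WT replicate 2 is lowest in both panels, at 1.86% and 0.0187%, and WT replicate 3 is above Piezo1_KO replicates 1 and 3 in both.

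No ribosomal protein gene passed the test of Piezo1_KO against WT. All 85 were among the 14149 genes tested, 0 rose and 0 fell at an adjusted p of 0.05 (edgeR's quasi-likelihood test, Benjamini-Hochberg method over every gene tested), where 1.51% of all genes tested passed, 1.00% higher and 0.509% lower in Piezo1_KO. At an unadjusted p under 0.05 there was 1 member (Rpl39l), where the share of all genes was 13.2%, and DESeq2 and limma-voom with sample weights also called 0 members. At an unadjusted p under 0.05 DESeq2 had 8 members, where the share of all genes was 12.9%, and limma-voom had 42, where it was 18.5%. The adjusted p of the members ran from 0.376 to 0.975, and the standard errors of their log2 fold changes from 0.09 to 0.57.

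The signs of the fold changes were nearly uniform. The log2 fold change was positive for 82 members and negative for 3 (Rps4l, Rpsa and Rpl7l1), where 53.0% of all genes tested were positive. The median was 0.35 over the members, 0.35 in the large subunit and 0.32 in the small subunit, against 0.02 over all genes tested. Members share libraries and scaling and are not independent of each other. Without WT replicate 2 the median was 0.12 with 69 members positive, and without WT replicate 3 it was 0.61 with 84 positive. At an unadjusted p under 0.05 there were 0 members without WT replicate 2 (13.3% of all genes) and 70 without WT replicate 3 (19.3% of all genes), with 0 called in either fit (edgeR). The members' median was 0.47, 0.24 and 0.31 without Piezo1_KO replicates 1, 2 and 3, and 0.33 without WT replicate 1. A member's Piezo1_KO libraries all lay above its WT libraries in 1 case (Rpl39l), where 10.1% of all genes tested showed that separation. The reverse separation held for 0 members and for 10.5% of all genes tested, and 20.6% of all genes were separated in either direction.

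**Figure D3:**
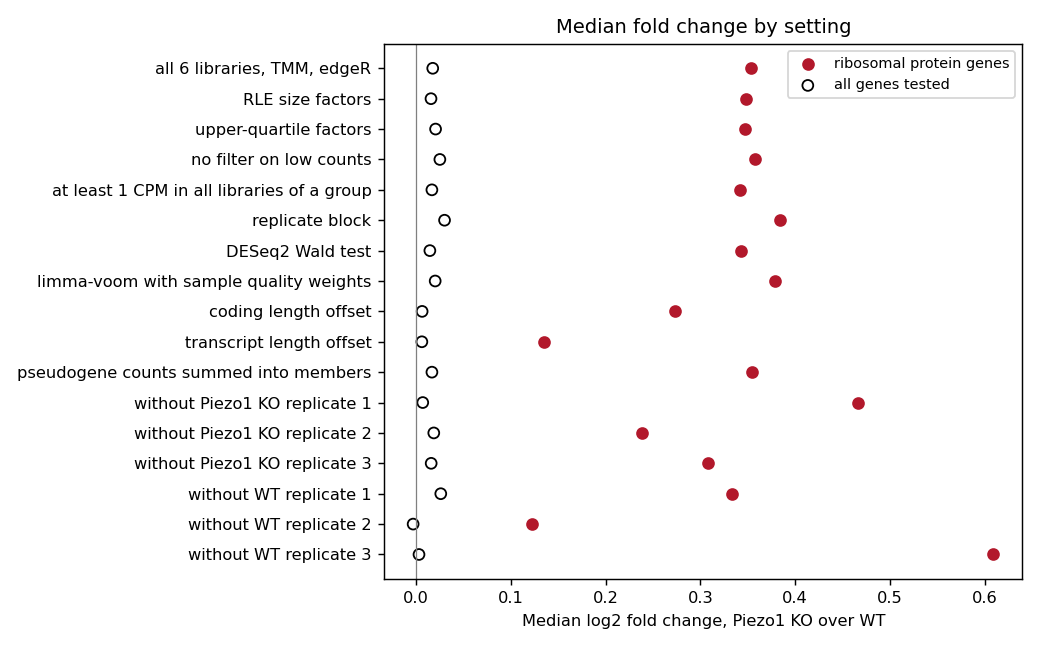
Points give the median log2 fold change, Piezo1_KO over WT, of the ribosomal protein genes (filled) and of all genes tested (open) under each setting on the y axis. The median of the ribosomal protein genes lies between 0.12 without WT replicate 2 and 0.61 without WT replicate 3, while that of all genes stays near 0.

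The stalk proteins, which recruit the translational GTPases to the large subunit, had positive fold changes that did not pass the test. Rplp0 (chr5:115559467-115563727, plus strand in mm10), the scaffold of the stalk, was at 1150.2, 1369.9 and 1273 CPM in Piezo1_KO replicates 1, 2 and 3, against 1144, 1047 and 1375 CPM in WT replicates 1, 2 and 3. These ranges overlapped almost wholly. The log2 fold change was 0.09 ± 0.12 (SE, adjusted p = 0.808, edgeR), and −0.01 without WT replicate 2. Rplp1 (chr9:61913284-61914542), which binds the scaffold as a dimer with its partner Rplp2, was at 293, 422 and 382 CPM in Piezo1_KO, against 273, 206 and 379.6 CPM in WT. Rplp2 (chr7:141447370-141451585) was at 248, 376 and 340.4 CPM in Piezo1_KO, against 226, 111 and 327 CPM in WT. Both were highest in Piezo1_KO replicate 2 and lowest in WT replicate 2, and WT replicate 3 lay inside the Piezo1_KO range of each. Their log2 fold changes were 0.35 ± 0.22 and 0.54 ± 0.34 (SE, adjusted p = 0.563 and 0.566, edgeR), or 0.14 and 0.20 without WT replicate 2.

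In the small subunit, Rps28 (chr17:33819027-33824562, minus strand), a protein close to the mRNA exit, was at 165, 254 and 241 CPM in Piezo1_KO replicates 1, 2 and 3, against 143, 63.4 and 185 CPM in WT replicates 1, 2 and 3. Piezo1_KO replicate 1 lay below WT replicate 3, so the groups overlapped. It averaged 220.1 ± 48.1 CPM in Piezo1_KO and 130.5 ± 61.8 CPM in WT (SD, n = 3 each), a log2 fold change of 0.76 ± 0.35 (SE, adjusted p = 0.405, edgeR), or 0.41 without WT replicate 2. Rps29, a zinc-binding protein of the small subunit chosen after its values were seen, was at 369, 566 and 533 CPM in Piezo1_KO, against 320.2, 123 and 438 CPM in WT. Its level in WT replicate 2 was 32.5% of the mean of WT replicates 1 and 3, the lowest of the 81 protein-coding members. The log2 fold change was 0.74 ± 0.39 (SE, adjusted p = 0.488, edgeR), or 0.35 without WT replicate 2.

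In the large subunit the lowest library was the same for the short genes described here. Rpl39, a very short protein near the exit tunnel, was at 132, 215 and 219 CPM in Piezo1_KO, against 116, 55.3 and 164 CPM in WT. WT replicate 3 was above Piezo1_KO replicate 1, and WT replicate 2 was below the other 5 libraries. The log2 fold change was 0.76 ± 0.36 (SE, adjusted p = 0.424, edgeR), or 0.41 without WT replicate 2. Rpl23, a protein of the large subunit that can also bind MDM2, was at 270.2, 376 and 362 CPM in Piezo1_KO, against 257, 153 and 301 CPM in WT, and its log2 fold change was 0.51 ± 0.24 (SE, adjusted p = 0.421, edgeR), or 0.25 without that library. Both genes had overlapping groups.

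**Figure D4:**
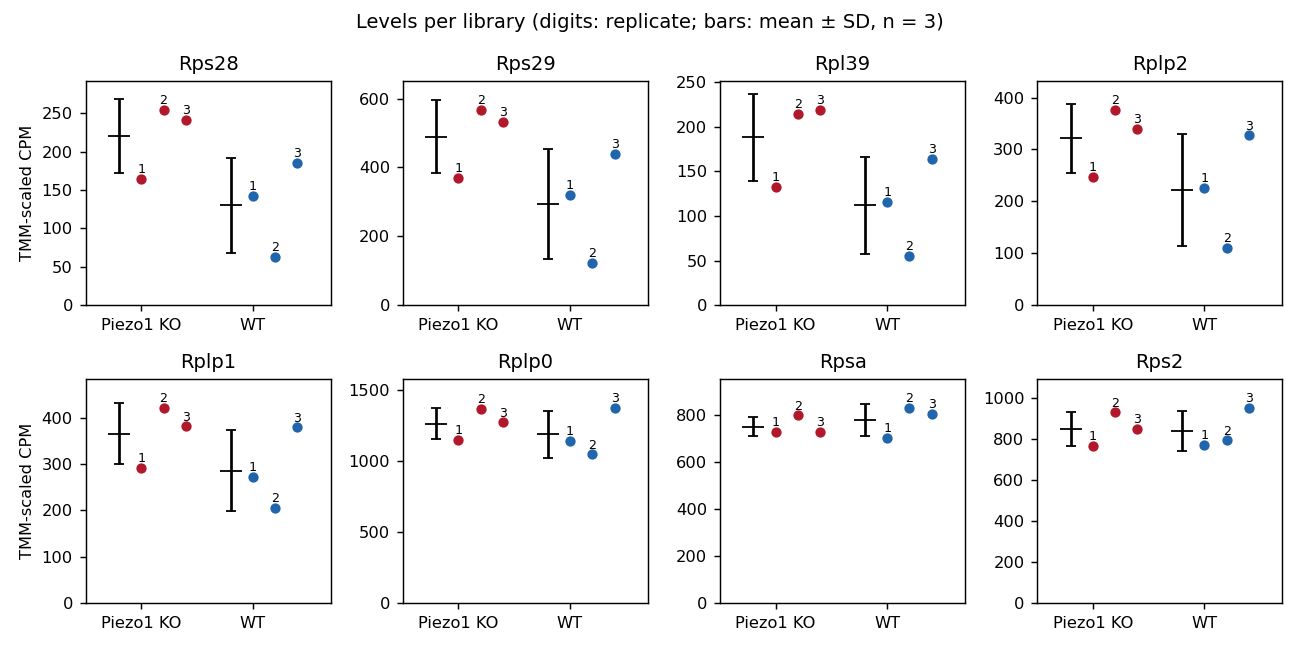
Points give TMM-scaled CPM per library for 8 ribosomal protein genes (digits are replicate numbers), with Piezo1_KO left of WT and the mean ± SD (n = 3) as a black bar. In Rps28, Rps29, Rpl39 and Rplp2 the WT replicate 2 point is far below the others, whereas in Rpsa it is the highest.

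Rps2, Rpl4 and Rpl13 were, like Rplp0, among the 5 members with the highest mean CPM, a level not divided by length. Rps2 (chr17:24718116-24721929), a small-subunit protein near the mRNA entry site, was at 766, 930.4 and 849.7 CPM in Piezo1_KO, against 772, 794 and 952 CPM in WT. Its ranges were nearly the same in both groups, and its log2 fold change was 0.02 ± 0.11 (SE, adjusted p = 0.975, edgeR). Rpl4 was at 896, 1061 and 992 CPM in Piezo1_KO, against 903, 799 and 1043 CPM in WT, a log2 fold change of 0.10 ± 0.12. Rpl13 was at 782, 961 and 853 CPM in Piezo1_KO, against 757, 555 and 1037 CPM in WT, a log2 fold change of 0.14 ± 0.20. In all 3 genes the groups overlapped (adjusted p = 0.770 for Rpl4 and 0.820 for Rpl13, edgeR). Without WT replicate 2 the log2 fold changes of Rps2, Rpl4 and Rpl13 were −0.04, −0.0045 and −0.07.

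The 3 members with negative fold changes are a small-subunit protein, a large-subunit paralog and a retrocopy. Rpsa (chr9:120127689-120132369), a small-subunit protein also known as a laminin receptor, was at 728, 799 and 727 CPM in Piezo1_KO, against 704, 831 and 805 CPM in WT, and its level in WT replicate 2 was 110.1% of the mean of WT replicates 1 and 3. It was the one member with its highest level in WT replicate 2. The log2 fold change was −0.05 ± 0.09 (SE, adjusted p = 0.865, edgeR), or −0.02 without WT replicate 2. Rpl7l1, a paralog of the large-subunit gene Rpl7, was at 173, 195 and 189 CPM in Piezo1_KO, against 184, 176 and 204 CPM in WT. Rps4l, annotated as a transcribed processed pseudogene, was at 21.1, 22.1 and 21.1 CPM in Piezo1_KO, against 22.8, 19.2 and 29.3 CPM in WT. Their log2 fold changes were −0.02 ± 0.10 and −0.14 ± 0.16 (SE, adjusted p = 0.964 and 0.769, edgeR), or −0.08 and −0.29 without WT replicate 2, and the groups overlapped in both.

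The size of the difference went with coding length, a property the symbol rule did not use. Coding lengths of the 81 protein-coding members (GENCODE M21) ran from 78 to 1260 bases. Across these genes, Spearman's rho of coding length with the log2 fold change was −0.83, and it was −0.76 without WT replicate 2. By library, rho with the deviation from the gene mean was −0.21, −0.85 and −0.79 in Piezo1_KO replicates 1, 2 and 3, against 0.50, 0.80 and −0.41 in WT replicates 1, 2 and 3. Across the 11295 other tested genes with a coding length, rho with the log2 fold change was −0.10, and 0.03 without WT replicate 2. For these genes rho by library was 0.30, −0.35 and −0.11 in Piezo1_KO replicates 1, 2 and 3 and 0.33, 0.31 and −0.37 in WT replicates 1, 2 and 3. Genes are not independent replicates, and these values describe points that share 6 libraries and 1 scaling.

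Grouped by length, the 27 shortest members (78 to 393 bases) had a median log2 fold change of 0.54, the 27 of 399 to 555 bases one of 0.38 and the 27 longest (567 to 1260 bases) one of 0.20. Other tested genes of the same lengths had medians of 0.17 (586 genes), 0.07 (664 genes) and −0.01 (3835 genes). Without WT replicate 2 the members' medians were 0.25, 0.13 and 0.02 in the same order, and those of the other tested genes 0.05, 0.01 and −0.02. The part of length in the difference between the groups was not tested as a cause. With each library's trend of level on coding length fitted over all genes and taken out, the members' median was 0.27 and rho with coding length −0.64, and with transcript length in its place the median was 0.14 with 62 of 85 positive.

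**Figure D5:**
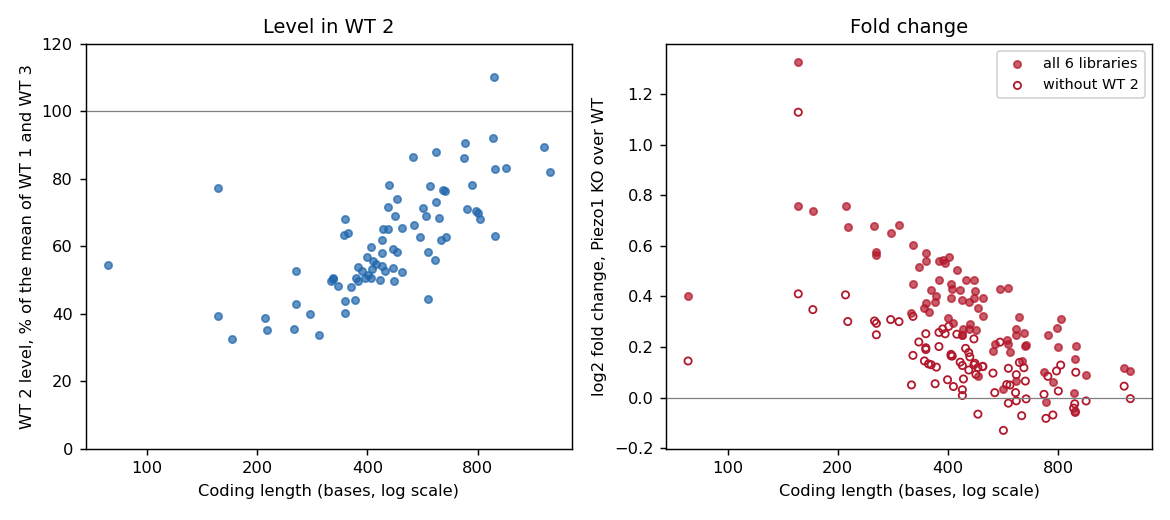
Each point is 1 of 81 protein-coding ribosomal protein genes, by coding length in bases on a log axis. Left, the level in WT replicate 2 as a percent of the mean of WT replicates 1 and 3, which runs from 32.5% (Rps29) to 110.1% (Rpsa). Right, the log2 fold change of Piezo1_KO over WT with all libraries (filled, rho −0.83) and without WT replicate 2 (open, rho −0.76).

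In WT replicate 2 the level of a protein-coding member was 59.1% (median) of the mean of WT replicates 1 and 3. Some members were chosen after their values were seen. Examples far below this median were Rpl37 (33.7%), Rpl38 (35.1%), Rps21 (35.6%) and Rpl37a (39.9%), all coding for short proteins. Longer genes could also be low, as Rps7, with a coding length of 585 bases, was at 44.3%. Rpl41, the shortest of all with a coding length of 78 bases, was at 54.5%, and Rpl3, with 1212 bases, at 89.6%. One component carried 95.4% of the sum of squared deviations of the 81 genes over the 6 libraries. For the 14064 tested genes outside the family the first component carried 49.5%. WT replicate 2 had the largest weight in each (−0.79 and −0.87). The sets were not matched for level or coding length, and the part of counting noise in the gap was not tested.

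Pseudogene symbols showed the same library. The 176 symbols with -ps took 0.0689%, 0.0788% and 0.0747% of the counts in Piezo1_KO replicates 1, 2 and 3, against 0.0652%, 0.0187% and 0.0942% in WT replicates 1, 2 and 3. In WT replicate 2 their summed level was 23.9% of the mean of WT replicates 1 and 3, against 66.7% for the members summed. They came to 2.73%, 2.37% and 2.43% of the member counts in Piezo1_KO replicates, and to 2.64%, 1.01% and 2.96% in WT replicates 1, 2 and 3. Of the 143 tested, 0 were called, with 4 at an unadjusted p under 0.05 where 13.2% of all genes were, and their median log2 fold change was 0.40, or −0.09 without WT replicate 2. How the counting divided reads between a member and its copies is not stated in these sources, and levels of both are uncertain. Summing each member with its -ps symbols left the members' median at 0.35 and 0 members called.

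By annotation 4 members are retrocopies, namely Rpl6l, Rpl32l and Rps12l1 (processed pseudogenes) and Rps4l. Rpl6l, whose copy is 98.74% identical to the Rpl6 coding sequence over the bases aligned, was at 9.47, 8.29 and 7.13 CPM in Piezo1_KO, against 8.55, 1.43 and 9.67 CPM in WT. Rpl32l (97.49% identical to Rpl32) was at 4.14, 5.42 and 6.11 CPM in Piezo1_KO, against 3.42, 1.43 and 5.92 CPM in WT. Rps12l1 (100% identical to Rps12) was at 1.23, 1.62 and 1.88 CPM in Piezo1_KO, against 1.76, 0.388 and 1.95 CPM in WT. These 3 genes, which were chosen after their values were seen, were lowest in WT replicate 2, at 15.7%, 30.7% and 20.9% of the mean of WT replicates 1 and 3. Reads cannot be told from those of the parent where the sequences are identical.

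Paralogs, and the retrocopy Rps4l, were compared with their parent gene as a log2 ratio of CPM + 0.5. Of 8 such pairs considered, 6 had both genes in the table. The ratio differed by −0.14 for Rpl36al over Rpl36a, −0.34 for Rpl7l1 over Rpl7 and −0.41 for Rps4l over Rps4x, Piezo1_KO minus WT, with no overlap between the groups in these 3 pairs (two-sided exact permutation test, p = 0.1 each, the smallest that 3 libraries against 3 allow, adjusted p = 0.2 over 6 pairs). Without WT replicate 2 the differences were −0.14, −0.20 and −0.38 in that order. Ratios of other gene pairs were not computed for comparison, and of single genes tested 20.6% were separated in either direction. The separation of Rpl7l1 over Rpl7 was marginal, with log2 ratios of −1.28 in both Piezo1_KO replicate 1 and WT replicate 3, and with a pseudocount of 2 CPM its groups overlapped (exact permutation p = 0.2). In counts, which are not divided by length, the parent was higher than Rpl7l1 and Rps4l, and Rpl36al higher than its parent, whose coding sequence is 87.85% identical to that of Rpl36al. Rpl36al was at 263, 393 and 365 CPM in Piezo1_KO, against 254, 151 and 344 CPM in WT. Rpl36a was at 85.9, 139 and 131 CPM in Piezo1_KO, against 79.6, 47.3 and 108 CPM in WT. Both were lowest in WT replicate 2, at 50.5% and 50.4% of the mean of the other WT libraries. Their log2 fold changes were 0.45 ± 0.28 and 0.61 ± 0.29 (SE), or 0.17 and 0.32 with that library left out.

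Rpl7, a large-subunit protein, was at 420.3, 576 and 525 CPM in Piezo1_KO, against 419, 312 and 496 CPM in WT. Rps4x, the X-linked small-subunit gene, was at 329, 447 and 396 CPM in Piezo1_KO, against 342, 253 and 374 CPM in WT. The log2 fold changes of these parents were 0.31 ± 0.18 and 0.27 ± 0.17, or 0.13 and 0.11 without WT replicate 2, while those of their paralogs were −0.02 ± 0.10 and −0.14 ± 0.16 (SE). Both parents were lowest in WT replicate 2. The Rpl7l1 coding sequence is 64.87% identical to that of Rpl7.

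The other 3 pairs had overlapping groups. For Rpl22l1 over Rpl22 the log2 ratio was −0.87 ± 0.12 in Piezo1_KO and −0.75 ± 0.14 in WT (SD, n = 3 each), a difference of −0.12 (exact permutation p = 0.2, adjusted 0.3). For Rps27l over Rps27 it differed by −0.04 (exact p = 0.8, adjusted 0.96), and for Rpl39l over Rpl39 by 0.02 (exact p = 1, adjusted 1). These 3 differences were −0.20, 0.06 and 0.43, in the same order, once WT replicate 2 was left out. Rps27l, a p53 target in human cells, was at 254, 354 and 349 CPM in Piezo1_KO, against 232, 135 and 282 CPM in WT, a log2 fold change of 0.56 ± 0.25 (SE, adjusted p = 0.398, edgeR), or 0.29 without WT replicate 2. Its parent Rps27 was at 141, 237 and 222 CPM in Piezo1_KO, against 142, 71.4 and 191 CPM in WT, a log2 fold change of 0.58 ± 0.34, or 0.25 without WT replicate 2.

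Rpl39l (chr16:10170226-10174911), a paralog enriched in the mouse testis, was at 1.10, 1.55 and 0.940 CPM in Piezo1_KO replicates 1, 2 and 3, against 0.855, 0.388 and 0.150 CPM in WT replicates 1, 2 and 3. It was the member with the lowest mean level and the one whose groups did not overlap, and its lowest library held 2 counts. The log2 fold change was 1.33 ± 0.57 (SE, adjusted p = 0.376, edgeR), or 1.13 without WT replicate 2. Rpl22l1 was at 43.9, 58.7 and 61.0 CPM in Piezo1_KO, against 45.0, 22.9 and 58.8 CPM in WT, a log2 fold change of 0.38 ± 0.30, or 0.05 with WT replicate 2 left out. Its parent Rpl22 was at 73.3, 114 and 117 CPM in Piezo1_KO, against 71.8, 43.8 and 94.3 CPM in WT, a log2 fold change of 0.54 ± 0.28, or 0.27 with that library left out. Both were lowest in WT replicate 2.

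Start regions of the genes were read from RefSeq's table for GRCm38.p6, in which 62 of the 85 members had an entry. The pyrimidine core CTTTC, searched on the gene's strand from 40 bases before the start to 40 after, was found in 30 of 62 members (48.4%) and in 10.3% of 9582 other tested genes. The longer CTCTTTC, which contains the shorter core, was found in 17.7% of members and 1.18% of other genes. CCGGAAG, a core of ETS factor sites, searched on both strands from 250 bases before the start to 50 after, was found in 40.3% of members and 21.1% of other genes, and AAGATGGC, a core of YY1 sites, searched likewise, in 9.68% of members and 5.48% of other genes. Neither of these contains CTTTC on either strand. The search did not require CTTTC to begin the mRNA, so its presence or absence does not say whether a gene has the TOP motif. A match is a description and was not tied to any difference between the groups.

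Windows of 20 bases before and 25 after the annotated start are shown for 5 members, some with a pyrimidine core in the window and some without. CTTTC is in capitals, and the sequence runs along the gene's strand.
Rplp2 (chr7:141447631-141447675, plus strand): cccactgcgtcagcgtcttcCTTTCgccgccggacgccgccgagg
Rps27 (chr3:90213624-90213668, minus strand): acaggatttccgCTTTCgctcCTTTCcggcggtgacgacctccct
Rpl4 (chr9:64173367-64173411, plus strand): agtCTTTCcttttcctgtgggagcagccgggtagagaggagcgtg
Rps28 (chr17:33824538-33824582, minus strand): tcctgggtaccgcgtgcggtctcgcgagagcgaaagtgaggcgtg
Rpsa (chr9:120127746-120127790, plus strand): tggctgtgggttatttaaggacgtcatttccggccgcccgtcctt

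In Rplp2 and Rps27 a core lies just after the annotated start, while in Rpl4 it lies wholly before it. The windows of Rps28 and Rpsa do not hold it, but they are shorter than the stretch searched above. Rplp2, Rps27 and Rpl4 had log2 fold changes of 0.54 ± 0.34, 0.58 ± 0.34 and 0.10 ± 0.12 (SE). Those of Rps28 and Rpsa were 0.76 ± 0.35 and −0.05 ± 0.09 (SE). Coding lengths were 348, 255 and 1260 bases for Rplp2, Rps27 and Rpl4, and 210 and 888 bases for Rps28 and Rpsa. A relation of the core to the fold change was not tested.

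Lists of other genes of the translation machinery were set beside the family, 127 genes in 6 lists, and 0 were called in any list, where 1.51% of all genes passed, and 9 were at an unadjusted p under 0.05, where 13.2% of all genes were (edgeR). Of the 127 genes, 10 had every Piezo1_KO library above every WT library and 15 had every one below. Over all genes tested 10.1% and 10.5% were separated in these directions. A list of 3 ribosomal protein genes outside the symbol rule had a median log2 fold change of 0.31. Fau, whose product is cleaved to Rps30, was at 167, 228 and 197 CPM in Piezo1_KO, against 152, 118 and 208 CPM in WT, a log2 fold change of 0.31 ± 0.20 (SE, adjusted p = 0.577, edgeR), or 0.12 without WT replicate 2 and 0.55 without WT replicate 3. Rack1, a scaffold on the small subunit chosen after its values were seen, had a log2 fold change of 0.09 ± 0.11 (SE). The coding lengths were 399 bases for Fau and 951 for Rack1. The rule and that list also miss Rps3a1, a small-subunit gene whose suffix the rule does not allow, which was chosen after its values were seen. It was at 511, 681 and 654 CPM in Piezo1_KO, against 509, 331 and 592 CPM in WT, lowest in WT replicate 2 and with overlapping groups (log2 fold change 0.37 ± 0.21 SE, adjusted p = 0.516, edgeR), or 0.14 without WT replicate 2.

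The median was 0.10 for 36 elongation and initiation factors, 0.12 for 17 non-ribosomal genes with TOP mRNAs (9 of them also among those factors), 0.03 for 46 ribosome biogenesis genes, 0.05 for 14 genes of RNA polymerase I and its initiation factors and −0.02 for 20 regulators of TOP mRNAs and mTORC1. Without WT replicate 2 these medians were 0.05, 0.05, −0.03, 0.04 and 0.0036 in the same order, and that of the list of 3 ribosomal protein genes was 0.11. Npm1, a nucleolar chaperone with a TOP mRNA, was at 551, 664 and 658 CPM in Piezo1_KO, against 518, 412 and 551 CPM in WT, with every Piezo1_KO library above every WT library by a narrow margin and a log2 fold change of 0.34 ± 0.13 (SE, adjusted p = 0.309, edgeR), or 0.21 without WT replicate 2. Etf1, the translation release factor, was at 221, 248 and 269.8 CPM in Piezo1_KO, against 216, 191 and 201 CPM in WT, also without overlap (0.28 ± 0.10, adjusted p = 0.287, edgeR). Bop1, which acts in maturation of the large subunit, was at 163, 161 and 151 CPM in Piezo1_KO, against 176, 199 and 191 CPM in WT, lower in every Piezo1_KO library (−0.25 ± 0.09, adjusted p = 0.269, edgeR). Polr1e, a subunit of RNA polymerase I, was at 31.6, 34.9 and 31.0 CPM in Piezo1_KO, against 27.8, 28.1 and 30.1 CPM in WT (0.18 ± 0.10, adjusted p = 0.512, edgeR). Mycn, a transcription factor that drives ribosome biogenesis, was at 0.338, 1.14 and 0.470 CPM in Piezo1_KO, against 1.81, 2.33 and 2.47 CPM in WT (−1.73 ± 0.49, adjusted p = 0.162, edgeR), and its groups did not overlap. These levels are low, which limits the precision of its fold change. These 5 genes were named because each had the smallest p of its list, and none passed the threshold.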

How the data were processed

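RNA of sorted mouse lung ILC2s was sequenced, with 3 Piezo1_KO and 3 WT libraries, grouped by the genotype labels. The deposited values are the authors' estimated counts for each gene, unscaled and often not whole (37.9% to 47.4% of values per library, tolerance 1e-09). Among the members' values, 88.2% to 94.1% per library were not whole. Per the submitters' processing notes, the genome build is mm10. The sources used here name no aligner, counter, annotation or strand setting.

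Counts were rounded, filtered with filterByExpr (14149 genes), scaled by TMM and tested with the quasi-likelihood test of edgeR 4.0.16 in R 4.3.3, two-sided, with p-values adjusted over all genes by the Benjamini-Hochberg method and a threshold of 0.05. Levels are TMM-scaled CPM, and log2 levels use a pseudocount of 0.5 CPM. Standard errors are the change divided by the square root of F. The script was tested on simulated data with the same relative spread for every gene. Of 50 genes changed 1.5-fold 14% were called, and of 50 changed 2-fold 56% were. Having 0 members called therefore does not exclude changes of this size. Depth was 13059046 to 33459904 estimated counts per library, which limits precision in the lowest members.

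Members and lists were chosen with earlier results of these data known. Named genes are Piezo1, the 5 members with the highest mean CPM, the 5 positive and 5 negative ones with the smallest p (only 3 were negative), the stalk genes, Rpsa, both genes of each paralog pair, the member with the lowest mean CPM and, per list, the 1 gene with the smallest p. A gene that this rule names is not reported here. Lengths and positions come from GENCODE release M21, and start regions from RefSeq. Alternatives were RLE and upper-quartile scaling, filters, each library left out in turn, a replicate block, DESeq2 1.42.0 and limma-voom (limma 3.58.1). Length offsets and the protein-coding members alone were added after the data had been seen.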

Additional observations from a re-analysis of the deposited data

How the results depend on the processing

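In every setting run, 0 ribosomal protein genes and 0 genes of the other translation lists were called, and the median log2 fold change of the members was positive, from 0.12 to 0.61 when each library was left out. The lowest adjusted p of a member over these settings was 0.087, with the transcript length offset. The number of all genes called, 214 with all libraries, was 594 in DESeq2, 439 in limma-voom, 637 with the coding length offset, 487 with the transcript length offset and 33 to 297 when each library was left out (35, 33 and 53 without Piezo1_KO replicates 1, 2 and 3, and 34, 297 and 237 without WT replicates 1, 2 and 3). Both offsets were added after the data had been seen, and the cause of these shifts was not tested. Of the single values, 21 changed sign and none of those passed the threshold on either side. With the transcript length offset Rps2 was −0.085, Rpl13 −0.016, Rplp1 −0.071 and Fau −0.11, and in limma-voom Rpsa was 0.028 and Rpl7l1 0.0090. Leaving out each library in turn gave −0.014 to 0.21 for Rplp0, −0.0045 to 0.21 for Rpl4, −0.055 to 0.11 for Rps2, −0.072 to 0.40 for Rpl13, −0.29 to 0.031 for Rps4l and −0.083 to 0.043 for Rpl7l1. The ratio of Rpl39l to Rpl39 differed by −0.46 with a pseudocount of 2 CPM and by −0.58 to 0.43 without single libraries, and that of Rps27l to Rps27 by −0.12 to 0.056. With single libraries left out, the log2 fold change ran from 0.41 to 1.10 for Rps28, 0.41 to 1.14 for Rpl39 and 0.25 to 0.72 for Rpl23. It ran from 0.14 to 0.61 for Rplp1, 0.20 to 0.93 for Rplp2 and 0.29 to 0.80 for Rps27l. In each of these genes the low end came without WT replicate 2 and the high end without WT replicate 3. Piezo1 passed the threshold in DESeq2, limma-voom, both offsets and without WT replicate 3.

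With the replicate number as a block, 52 genes and 0 members were called. No pairing by number was seen. The deviations of same-numbered libraries from their group means had correlations of −0.02, −0.18 and −0.01 across genes for replicates 1, 2 and 3. With 3 libraries per group these values cannot exclude a pairing. Low counts limit Rpl39l, with 2 counts in its lowest library.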
